A study of Mus musculus with 10 samples.

Results

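Nuclear receptors are transcription factors that carry a zinc-finger DNA-binding domain and, in most cases, a pocket for a lipid-soluble ligand such as a steroid, retinoid, thyroid hormone, bile acid, oxysterol or fatty acid. Many of those named below bind DNA as a partner of a retinoid X receptor (RXR), and they recruit coactivators or corepressors to their target genes. In liver they set the programmes of bile acid, lipid, glucose and drug metabolism, and several are drug targets in steatohepatitis. The group described here is the superfamily without the NR4A receptors, chosen by gene symbol from a fixed list. All 35 listed genes were found among the 17274 genes of the table, and 30 of them had a mean of at least 0.5 FPKM over all livers and were tested.

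Livers came from wild-type mice on a choline-deficient, amino acid-defined, high-fat diet (CDAHFD), given to bring on nonalcoholic steatohepatitis, in which a fatty liver becomes inflamed. In 5 livers the mice had received an intravenous adeno-associated virus (AAV) encoding miR-181d-5p. The other 5 livers came from mice on the same diet given a control AAV. The labels do not give the age, sex, strain, dose or promoter of the vector, or the hour of harvest, and they do not say that each sample is a separate animal. The spread behind every p-value is therefore that among samples, which may be technical. FPKM means fragments scaled by gene length and by library size. A comparison of levels between genes therefore rests on the gene lengths used, whose annotation was not stated. Library totals, worked out from the FPKM steps, were 18985912 to 20657019 reads in miR-181d-5p livers and 19118235 to 20337358 reads in control livers. The hepatocyte gene Alb stood at 21360 to 24200 FPKM in miR-181d-5p livers, against 20760 to 24750 FPKM in control livers. The hepatocyte marker list had a median log2 change of 0.05. Markers of stellate cells and fibroblasts, in contrast, summed to 362 to 491 FPKM in miR-181d-5p livers, against 494 to 681 FPKM in control livers, and none of the marker genes measured was listed at 0 in all livers.

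The microRNA that the vector encodes pairs with messenger RNAs mainly through its seed, bases 2 to 8. The RefSeq sequences (GRCm38.p6) of the mouse miR-181 family are shown with the seed in capitals, since the same 7 bases define the matches searched in the receptors.
miR-181d-5p: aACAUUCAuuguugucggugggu
miR-181a-5p: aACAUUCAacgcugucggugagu
miR-181b-5p: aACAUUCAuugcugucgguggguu
miR-181c-5p: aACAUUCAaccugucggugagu
All family members share the seed and differ downstream of it.

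A seed match is the reverse complement of the seed, and the longest annotated 3' UTR of each gene was searched on the sense strand for TGAATGTA (8mer), TGAATGT (7mer-m8) and GAATGTA (7mer-A1), with each position counted under its longest form. Of the 35 receptors, 10 held at least 1 match (28.6%), against 23.0% of the 11770 tested genes whose 3' UTR is annotated. An 8mer was present in 7 of the 35, and in 698 of those 11770 genes (5.9%). The 35 include receptors too low to test. Among the 30 tested receptors, 8 held a match (26.7%) and 5 held an 8mer (16.7%). Median 3' UTR length was 1561 bases in the receptors and 1114 in all tested genes, and among genes with a 3' UTR of 671 to 2919 bases the share with a match was 11.8% of 17 receptors and 25.4% of 5981 tested genes. For 8mers in that length range it was 5.9% of receptors (1 of 17) and 6.0% of tested genes. That range is the interquartile range of the receptors' own 3' UTR lengths. It holds only 2 of the 10 receptors with a match and 1 of the 7 with an 8mer. Whether the shares among all 35 receptors follow from 3' UTR length was therefore not tested. A match is a run of letters in the annotated transcript, and whether the liver uses that 3' UTR was not tested. The 8mers are shown, with the match in capitals, because they are the longest matches among the receptors (mm10, each in the last exon of its transcript).
Esr1, chr10:5003335-5003342, forward strand: tggacaatTGAATGTAatagttat
Nr1d2, chr14:18204057-18204064, reverse strand: aagtttgcTGAATGTAtga
Nr1h4, chr10:89454380-89454387, reverse strand: caataaacTGAATGTAatagcaag
Nr2c2, chr6:92171072-92171079, forward strand: tgactgaaTGAATGTAcatgtgtt
Nr6a1, chr2:38727640-38727647, reverse strand: gacagagtTGAATGTAtggccttc
Thrb, chr14:18035080-18035087, forward strand: catacaacTGAATGTActgactct
Vdr, chr15:97854798-97854805, reverse strand: ttttattcTGAATGTAcaaaggca
The Nr1d2 match starts at base 2621 of an annotated 3' UTR of 2631 bases, and the Nr1h4 match at base 323 of 476. The other receptors with a match held 7mers only: Rora 4, Nr3c1 3 and Nr5a2 1. Thrb held 3 matches in all, and Esr1, Nr1d2, Nr2c2, Nr6a1 and Vdr held 2 each.

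Receptor mRNA levels spanned nearly 3 orders of magnitude in these livers. Hnf4a, the factor that maintains hepatocyte identity, was highest, followed by Rxra, the main partner for heterodimers, and Nr1h3, the liver X receptor alpha that senses oxysterols. These 3 averaged 59.2 to 99.7 FPKM over 10 livers. A second tier of 9 receptors averaged 20.6 to 34.2 FPKM. It held the bile acid receptor FXR (Nr1h4), the COUP family repressor Nr2f6, the xenobiotic receptors CAR (Nr1i3) and PXR (Nr1i2), the REV-ERB clock repressors Nr1d1 and Nr1d2, the second liver X receptor Nr1h2, the fatty acid receptor Ppara and the mitochondrial regulator Esrra. Nr0b2 (SHP, which lacks a DNA-binding domain and represses other receptors), Rxrb, Pparg, Nr5a2 and the glucocorticoid receptor Nr3c1 averaged 9.26 to 18.1 FPKM. A further 13 averaged 1.6 to 5.49 FPKM, and 5 stood under 0.5 FPKM: Nr6a1, Nr2f1, Vdr, Esrrg and Hnf4g.

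**Figure D1:**
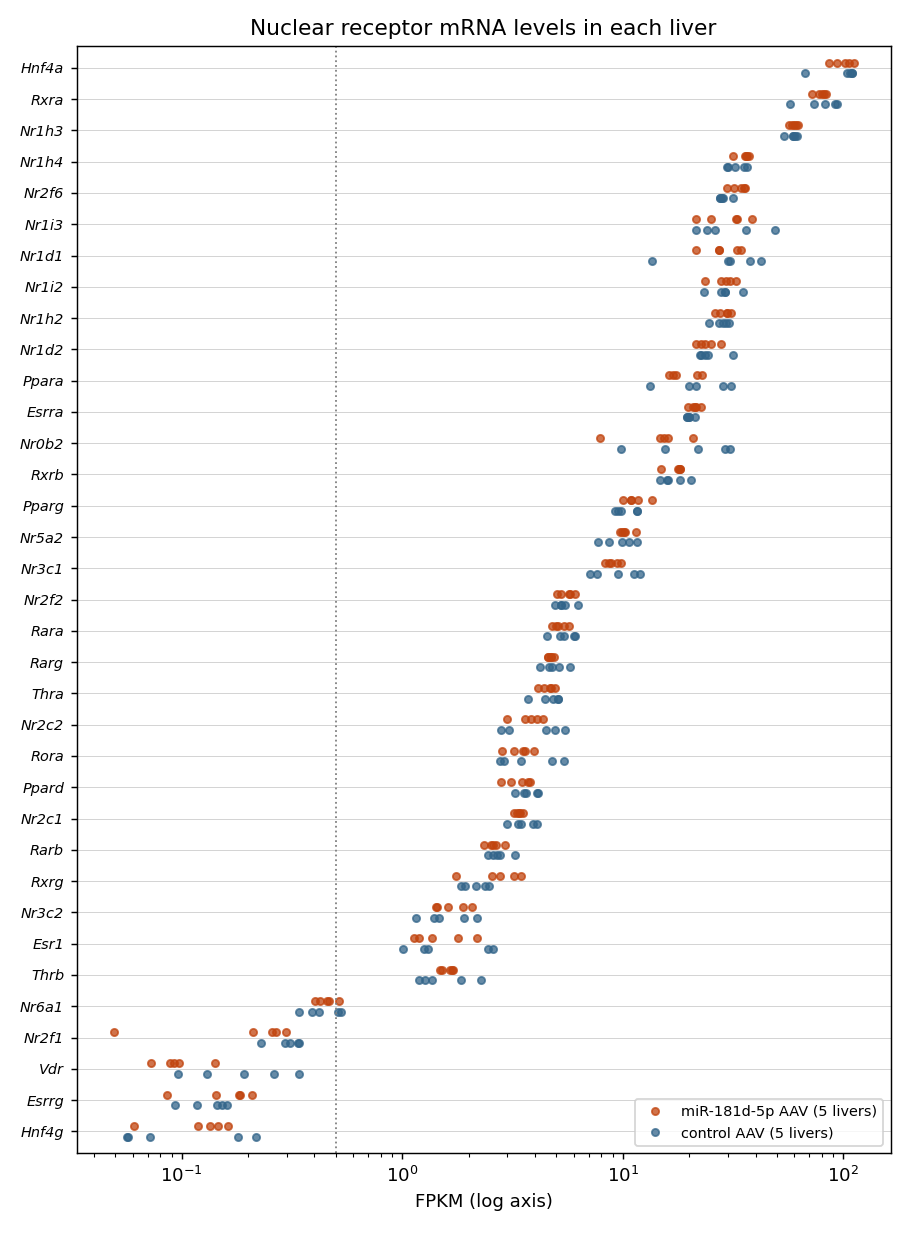
FPKM of each of the 35 receptors on a log axis, in 5 miR-181d-5p livers (upper points) and 5 control livers (lower points), from highest to lowest mean. The dotted line marks 0.5 FPKM, the lower limit for testing, and the groups overlap for every receptor.

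The order of neighbours in this ranking was mostly within their spread. Of 34 neighbouring pairs, 4 had ranges over 10 livers that did not overlap. These gaps lay below Nr1h3, below Rxrb, below Nr3c1 and below Thrb, and 7 pairs kept the same order in all 10 livers. The balance of paralogues differed between families. Rxra made up 79.6 ± 1.51% of summed RXR FPKM in miR-181d-5p livers and 80.3 ± 3.403% in control livers (SD, n = 5 each), and Rxrg made up 1.62% to 3.47% in single livers. Nr1h3 made up 67.4 ± 1.78% of the liver X receptors in miR-181d-5p livers and 67.8 ± 1.73% in control livers. Thra exceeded Thrb in FPKM, with 73.9 ± 2.42% of thyroid hormone receptor FPKM in miR-181d-5p livers and 74.6 ± 5.21% in control livers. That order rests on gene length, worked out from the FPKM as 3731 bases for Thra and 13810 for Thrb. Thrb had more reads, at 2176 in miR-181d-5p livers and 2143 in control livers, against 1670 and 1697 for Thra. Other families were closer to even: Nr1i2 made up 49.1% of CAR and PXR FPKM over 10 livers, Nr1d1 54.0% of the REV-ERB pair, Nr2c1 47.2% of the TR2 and TR4 pair, and Rara 41.5% of the 3 retinoic acid receptors. Thra and Nr1d1 lie on opposite strands and share 263 annotated exon bases. The strand setting of the counting was not stated, so for overlapping genes the reads cannot be assigned with certainty.

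The comparison of miR-181d-5p livers with control livers asked whether the vector went with a change in receptor mRNA. By limma on log2(FPKM + 1), with p-values adjusted over 12053 genes by the Benjamini-Hochberg method, 0 of 30 tested receptors had an adjusted p under 0.05, and the lowest was 0.25. Over all genes the share called was 0.0%, and limma voom on recovered reads also called 0 genes. At an unadjusted p under 0.05, 1 receptor was higher (3.33% of 30, where 5.04% of all tested genes were) and 0 were lower (where 9.63% were). That split of all genes depended on scaling: 607 higher and 1161 lower here, 347 and 1266 with a common FPKM sum, and 997 and 942 after quantile normalization. By limma voom on recovered reads, the receptor counts were also 1 and 0. No tested receptor separated the groups without overlap, where 1.02% of all genes did so with the microRNA livers higher and 1.45% with them lower. Of the receptors 15 were higher and 15 lower, around a median of -0.005 (log2). Without control liver 5 the split was 10 higher and 20 lower (median -0.065), without control liver 1 it was 20 and 10 (median 0.028), with a common FPKM sum 11 and 19, and with the length trend removed 19 and 11. The median size of a change was 0.05. Over all genes tested the median was -0.018 and the median size 0.10.

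The intervals show what sizes remain possible. The 95% interval of the log2 change lay within 0.5 on either side of 0 for 27 of 30 receptors and within 1 for 29. The widest intervals on this scale belonged to Nr0b2, Nr1d1, Nr1i3 and Ppara. By limma voom on recovered reads, the intervals of some low receptors were wider. They were -0.69 to 0.50 for Esr1, -0.08 to 0.71 for Rxrg and -0.50 to 0.26 for Rora (log2). Spread was larger among control livers for 25 of 30 receptors (83.3%, against 76.1% of all genes). Their SD on the log2 scale had a median of 0.112 in miR-181d-5p livers and 0.185 in control livers.

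**Figure D2:**
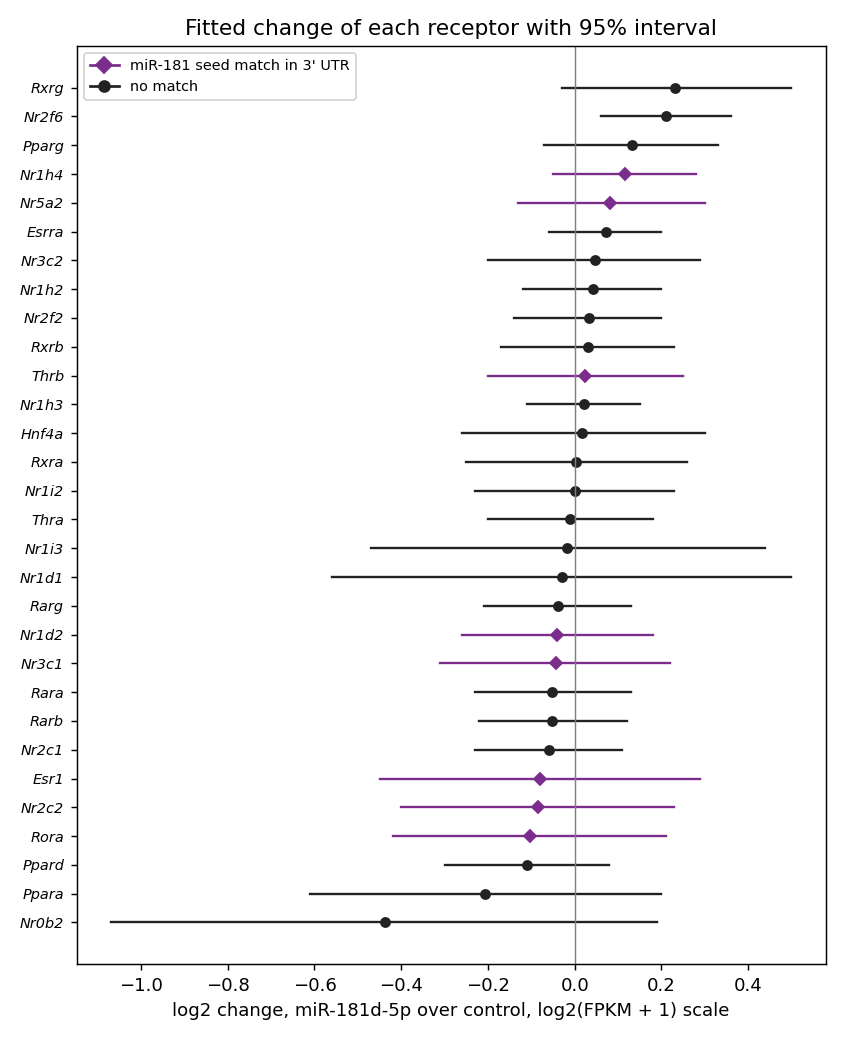
Fitted log2 change (miR-181d-5p over control) of the 30 tested receptors with its 95% interval, from most positive to most negative. Diamonds mark the 8 receptors with a miR-181 seed match, which lie between -0.10 and 0.12. The interval of Nr2f6 alone leaves out 0, before adjustment.

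Nr2f6, an orphan COUP family member best known as a repressor in T lymphocytes, had the smallest p. It stood at 35.3, 29.8, 34.3, 36.0 and 31.8 FPKM in miR-181d-5p livers 1 to 5, against 27.6, 28.1, 27.6, 31.7 and 28.3 FPKM in control livers 1 to 5. The groups overlapped, since control liver 4 lay above miR-181d-5p liver 2 and close to liver 5. Means were 33.4 ± 2.58 and 28.7 ± 1.73 FPKM (SD, n = 5 each), a log2 change of 0.21 (SE 0.07) with a limma adjusted p of 0.25, so it did not pass. The two-sided exact permutation p, unadjusted and of the gene with the smallest p, was 0.0159, where 0.0079 is the smallest that 5 against 5 livers can give. Over all alternatives the log2 change ran from 0.18 to 0.25 and the adjusted p from 0.149 to 0.524. On chromosome 8 (71374123 to 71381960, mm10, reverse strand), 54.4% of the annotated exon bases of Nr2f6 overlap Ocel1 on the other strand. The annotation pools 2983 exon bases over transcripts, while the gene length worked out from the FPKM was 4620. The overlap within the counted gene is therefore not known. Ocel1 stood at 5.50 ± 0.703 FPKM in miR-181d-5p livers and 4.60 ± 0.551 FPKM in control livers (log2 change 0.21, adjusted p = 0.337 by limma), and the part of shared reads in the Nr2f6 value was not tested.

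The RXR genes are the common partners of the ligand-sensing receptors. Rxrg, the least abundant of them, was next by p. It stood at 2.54, 3.47, 2.78, 3.21 and 1.75 FPKM in miR-181d-5p livers 1 to 5, against 1.84, 1.92, 2.38, 2.48 and 2.17 FPKM in control livers 1 to 5. In 4 of 5 miR-181d-5p livers it was above every control liver, while liver 5 was the lowest of all 10. Limma gave a log2 change of 0.23 (SE 0.12, adjusted p = 0.392) with all livers and of 0.34 (adjusted p = 0.25) when that liver was left out. With each liver left out in turn, the log2 change of Rxrg ran from 0.16 to 0.34. Rxra stood at 83.4, 81.4, 72.0, 77.7 and 80.2 FPKM in miR-181d-5p livers 1 to 5, against 93.5, 91.8, 73.8, 82.7 and 57.4 FPKM in control livers 1 to 5. Control livers held both its highest and its lowest values, and the means were 79.0 ± 4.39 FPKM in miR-181d-5p livers and 79.8 ± 14.8 FPKM in control livers. Rxrb averaged 17.4 ± 1.39 FPKM in miR-181d-5p livers and 17.1 ± 2.24 FPKM in control livers.

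**Figure D3:**
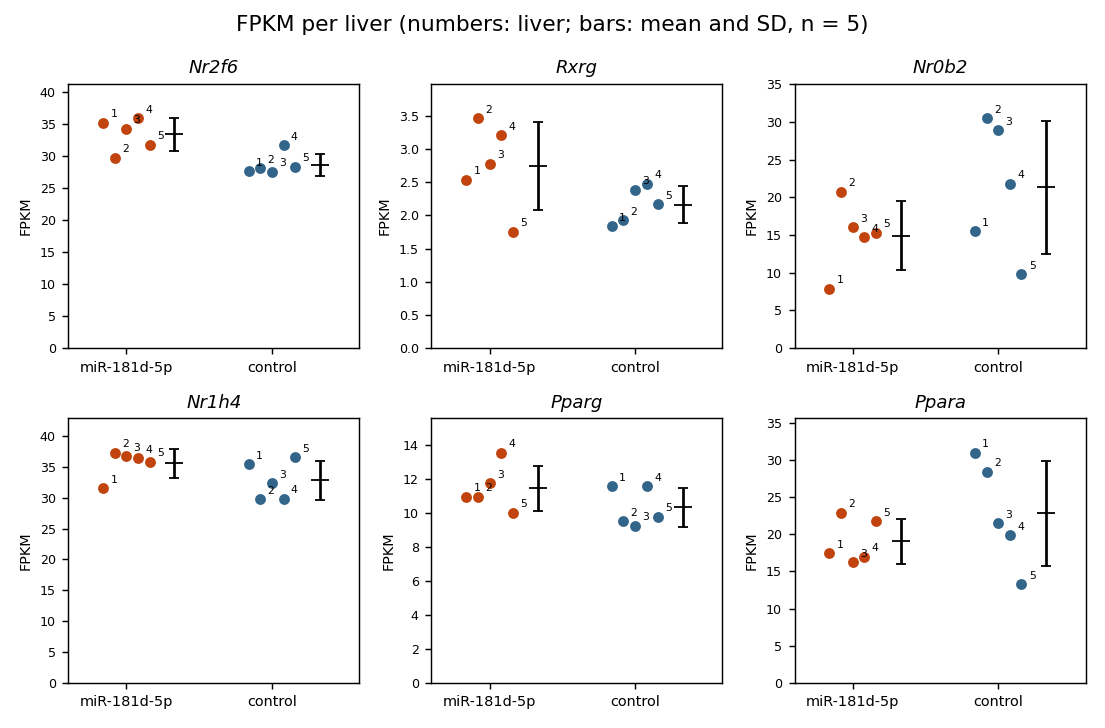
FPKM per liver, with the liver number beside each point and the mean and SD (n = 5) as bars, for 6 of the receptors with the smallest p. miR-181d-5p livers stand to the left of control livers. Rxrg separates the groups except for miR-181d-5p liver 5, and Nr0b2 and Ppara spread widest among control livers.

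The bile acid axis joins FXR, which senses bile acids, to its target SHP (Nr0b2) and to LRH-1 (Nr5a2), which SHP holds back. Nr1h4 stood at 31.6, 37.3, 36.8, 36.4 and 35.8 FPKM in miR-181d-5p livers 1 to 5, against 35.4, 29.8, 32.4, 29.9 and 36.6 FPKM in control livers 1 to 5. The log2 change was 0.12 (SE 0.08, adjusted p = 0.482 by limma), in a gene that carries an 8mer. Nr0b2 stood at 7.87, 20.7, 16.02, 14.7 and 15.3 FPKM in miR-181d-5p livers 1 to 5, against 15.5, 30.5, 29.0, 21.8 and 9.80 FPKM in control livers 1 to 5. It was the most variable of the tested receptors, with a 3.88-fold range, and had the largest change, at 70.0% of the control mean. That log2 change of -0.44 (95% interval -1.07 to 0.19) did not pass (adjusted p = 0.482 by limma). Without control liver 5, its lowest control value, it was -0.67 with an adjusted p of 0.179. With each liver left out in turn, the log2 change of Nr0b2 ran from -0.67 to -0.24. Nr5a2 stood at 10.1, 9.73, 11.5, 9.88 and 10.3 FPKM in miR-181d-5p livers 1 to 5, against 11.6, 10.7, 8.65, 9.97 and 7.74 FPKM in control livers 1 to 5, with the microRNA livers inside the control range. Of 10 tested FXR and SHP target genes, 9 had positive changes (median 0.13), 2 at an unadjusted p under 0.05 (5.04% of all tested genes were) and 0 past the adjusted threshold. Of all 12053 tested genes, 5479 had positive changes. The list pools targets of FXR with targets of the repressor SHP, so its count and median have no single expected direction. The count of 2 was 1 with a common FPKM sum, after quantile normalization, and without miR-181d-5p liver 1, 3, 4 or 5 or control liver 2 or 5. The 2 genes were Cyp7a1, the rate-limiting enzyme of bile acid synthesis, at 30.6 ± 10.6 FPKM in miR-181d-5p livers and 17.3 ± 5.84 FPKM in control livers (adjusted p = 0.249 by limma), and Abcb11, the bile salt export pump, at 124% of control (adjusted p = 0.311). Slco1b2, a basolateral uptake transporter, came next by p, at 109% of control.

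The PPAR receptors respond to fatty acids, Ppara in hepatocyte oxidation, Pparg in fat storage and Ppard more broadly. Ppara stood at 17.5, 22.9, 16.2, 16.98 and 21.7 FPKM in miR-181d-5p livers 1 to 5, against 30.9, 28.4, 21.5, 19.9 and 13.3 FPKM in control livers 1 to 5. All miR-181d-5p values lay inside the control range, which was set by control livers 1 and 5. The log2 change was -0.21 (95% interval -0.61 to 0.20, adjusted p = 0.611 by limma), and -0.38 with an adjusted p of 0.185 without control liver 5. With each liver left out in turn, the log2 change of Ppara ran from -0.38 to -0.09. Pparg stood at 10.9, 10.9, 11.7, 13.5 and 10.005 FPKM in miR-181d-5p livers 1 to 5, against 11.6, 9.51, 9.23, 11.5 and 9.78 FPKM in control livers 1 to 5, a log2 change of 0.13 (SE 0.09) with overlapping groups. Ppard stood at 3.50, 3.73, 3.79, 3.12 and 2.80 FPKM in miR-181d-5p livers 1 to 5, against 4.12, 3.62, 3.25, 4.08 and 3.55 FPKM in control livers 1 to 5. Its log2 change of -0.11 (SE 0.09) was likewise within the spread of livers. Among 22 tested PPAR target genes, 11 were higher and 11 lower, with a median of -0.01, and 0 passed. That split was unsteady: 16 were lower after quantile normalization, 15 with a common FPKM sum, and 6 (without control liver 3) to 17 (without miR-181d-5p liver 5 or control liver 4) with 1 liver left out. The smallest p values were those of the hepatokine gene Fgf21 (167% of control, adjusted p = 0.296), the lipase inhibitor gene Angptl4 (75.3%, adjusted p = 0.311) and the fatty acid binding protein gene Fabp4 (75.9%, adjusted p = 0.38, all by limma).

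The hepatocyte receptor Hnf4a and the liver X receptors had similar means in both groups. Hnf4a stood at 101.7, 93.5, 85.8, 111.2 and 106.3 FPKM in miR-181d-5p livers 1 to 5, against 109.8, 110.0, 104.1, 107.4 and 67.2 FPKM in control livers 1 to 5. Control liver 5 was the lowest of all 10, and the remaining control livers lay close together. The group means were equal to 3 digits, at 99.7 FPKM in each, with a log2 interval of -0.26 to 0.30, and without control liver 5 the log2 change was -0.12 (adjusted p = 0.382 by limma). Nr1h3 stood at 62.0, 58.4, 59.8, 61.2 and 56.9 FPKM in miR-181d-5p livers 1 to 5, against 53.9, 59.2, 61.5, 60.5 and 59.1 FPKM in control livers 1 to 5. It was the steadiest tested receptor, with a 1.151-fold range over 10 livers and a log2 interval of -0.11 to 0.15. Of 15 tested HNF4A target genes 13 were higher and 2 lower (median 0.07), and Ttr, which encodes transthyretin, had the smallest p (116% of control, adjusted p = 0.311 by limma), followed by Cyp8b1 (127%) and Apoa2 (113%). Of 13 tested LXR target genes, a list that includes Nr1h3 itself, 8 were higher and 5 lower. Srebf1, the lipogenic transcription factor gene, stood at 54.9 ± 16.8 FPKM in miR-181d-5p livers and 32.5 ± 11.6 FPKM in control livers (adjusted p = 0.25 by limma), the cholesterol exporter gene Abcg1 was at 84.2% of control (adjusted p = 0.276) and Mylip, which degrades the LDL receptor, at 89.8%.

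The xenobiotic receptors CAR and PXR switch on drug-metabolising enzymes. Nr1i2 averaged 28.8 ± 3.39 FPKM in miR-181d-5p livers and 28.9 ± 4.18 FPKM in control livers, with a log2 interval of -0.23 to 0.23. Nr1i3 averaged 30.2 ± 6.87 FPKM in miR-181d-5p livers and 31.4 ± 11.2 FPKM in control livers. It ran from 21.5 FPKM to 38.7 FPKM in miR-181d-5p livers and from 21.5 FPKM to 48.8 FPKM in control livers, so its interval of -0.47 to 0.44 leaves room for a sizeable difference. Of its annotated exon bases 74.9% overlap Tomm40l on the other strand. The annotation pools 4414 exon bases over transcripts, while the gene length worked out from the FPKM was 2307. The overlap within the counted gene is therefore not known. Among 19 tested CAR and PXR target genes 13 were higher and 6 lower (median 0.10), with 3 higher and 1 lower at an unadjusted p under 0.05 (5.04% and 9.63% of all tested genes were) and 0 past the adjusted threshold. The smallest p values belonged to Gstm1, a glutathione transferase whose reads may be shared with close family members (128% of control, adjusted p = 0.221 by limma), Ces2a, a carboxylesterase (129%, adjusted p = 0.222), and Gadd45b, a stress gene (61.2%, adjusted p = 0.269). Cyp2b10, the textbook CAR target, was under the limit for testing, at 0.129 to 0.671 FPKM in miR-181d-5p livers and 0.0279 to 0.419 FPKM in control livers.

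The REV-ERB and ROR receptors form a loop of the circadian clock, in which Nr1d1 and Nr1d2 repress and Rora activates Arntl (Bmal1). Nr1d1 ran from 21.5 FPKM to 34.4 FPKM in miR-181d-5p livers and from 13.6 FPKM (liver 2) to 42.5 FPKM (liver 1) in control livers, a log2 change of -0.03 with an interval of -0.56 to 0.50. Nr1d2, which carries an 8mer, averaged 24.1 ± 2.54 FPKM in miR-181d-5p livers and 24.9 ± 3.77 FPKM in control livers. Rora averaged 3.43 ± 0.419 FPKM in miR-181d-5p livers and 3.85 ± 1.17 FPKM in control livers. Arntl was low in both groups, at 0.168 to 0.577 FPKM in miR-181d-5p livers and 0.152 to 0.334 FPKM in control livers, while Dbp, a clock output gene, was at 103% of control. Of 14 tested clock genes 11 were lower and 3 higher (median -0.09). With the length trend removed 8 were lower (median -0.03), as were 8 after quantile normalization (median -0.04). The smallest p values were those of Per1, a clock gene also induced by glucocorticoids, at 51.9% of control (adjusted p = 0.19 by limma), the repressor gene Bhlhe40 at 71.6% (adjusted p = 0.24) and Ciart at 47.7% (adjusted p = 0.319).

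The glucocorticoid receptor gene Nr3c1, with 3 7mer matches, averaged 9.02 ± 0.569 FPKM in miR-181d-5p livers and 9.49 ± 2.11 FPKM in control livers (log2 interval -0.31 to 0.22). The mineralocorticoid receptor gene Nr3c2 averaged 1.69 ± 0.289 FPKM in miR-181d-5p livers and 1.62 ± 0.413 FPKM in control livers. Of 15 tested genes that glucocorticoids induce, 11 were lower, 8 of them at an unadjusted p under 0.05 (where 9.63% of all tested genes were), with a median of -0.36 that was -0.20 without control liver 5, and 0 passed. Per1 and Cdkn1a, a cell cycle inhibitor gene, did not overlap between the groups, as was so, with the microRNA livers lower, for 1.45% of all tested genes. Cdkn1a was at 76.2% of control (adjusted p = 0.221 by limma) and Fkbp5, a chaperone partner of the receptor, at 71.1% (adjusted p = 0.222).

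The retinoic acid, thyroid hormone and vitamin D receptors were low in these livers. Rara, Rarb and Rarg, the retinoic acid receptors, had log2 changes of -0.05, -0.05 and -0.04. Rarb averaged 2.61 ± 0.216 FPKM in miR-181d-5p livers and 2.75 ± 0.300 FPKM in control livers. Of its 5265 annotated exon bases 34.1% overlap Top2b on the other strand, while the gene length worked out from the FPKM was 3423. Of 8 tested retinoid target genes 5 were lower and 3 higher, with Lrat, which esterifies retinol and marks stellate cells, at 84.0% of control (adjusted p = 0.26 by limma) and Tgm2 at 87.7%. Stellate and fibroblast markers were lower in 11 of 12 genes (median -0.37), and their part in the retinoid list was not tested. In such bulk tissue, fewer cells of a type and less RNA per cell cannot be told apart. Thra averaged 4.57 ± 0.305 FPKM in miR-181d-5p livers and 4.63 ± 0.578 FPKM in control livers. Thrb, the main thyroid hormone receptor of hepatocytes and a carrier of 3 matches, averaged 1.604 ± 0.102 FPKM in miR-181d-5p livers and 1.59 ± 0.456 FPKM in control livers. Of 9 tested thyroid hormone target genes 6 were higher and 3 lower (median 0.10, and 0.06 to 0.22 with 1 liver left out). Cyp7a1, given above, had the smallest p, Me1, the malic enzyme gene, was at 125% of control (adjusted p = 0.25 by limma) and Klf9 at 79.7%.

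The remaining tested receptors were orphans or oestrogen-related. Esrra stood at 21.2, 22.5, 19.8, 20.8 and 21.4 FPKM in miR-181d-5p livers 1 to 5, against 20.04, 19.6, 21.3, 19.5 and 20.03 FPKM in control livers 1 to 5, a narrow spread with a log2 change of 0.07 (SE 0.06). Nr2c1 (TR2) stood at 3.39, 3.30, 3.41, 3.20 and 3.52 FPKM in miR-181d-5p livers 1 to 5, against 4.09, 3.91, 2.998, 3.35 and 3.46 FPKM in control livers 1 to 5, with control livers 1 and 2 above all others. Its paralogue Nr2c2 (TR4), with an 8mer, averaged 3.77 ± 0.518 FPKM in miR-181d-5p livers and 4.14 ± 1.179 FPKM in control livers. Esr1, the oestrogen receptor alpha gene, averaged 1.53 ± 0.444 FPKM in miR-181d-5p livers and 1.72 ± 0.741 FPKM in control livers. Nr2f2 (COUP-TFII), which is used in endothelial and stromal cells, averaged 5.55 ± 0.412 FPKM in miR-181d-5p livers and 5.42 ± 0.497 FPKM in control livers, and Nr1h2 averaged 28.9 ± 1.94 FPKM in miR-181d-5p livers and 28.0 ± 2.25 FPKM in control livers.

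The 5 receptors under the limit for testing rested on few reads. Vdr, the vitamin D receptor gene, which stellate cells, macrophages and bile duct cells use, had 12, 8, 8, 6 and 8 reads in miR-181d-5p livers 1 to 5, against 11, 16, 23, 30 and 8 reads in control livers 1 to 5. These sum to 42 reads in miR-181d-5p livers and 88 in control livers, and mean FPKM was 48.2% of control. The groups overlapped, with control liver 5 among the low values. The two-sided exact permutation p was 0.0556. By limma voom on genes with at least 10 reads, an alternative added after the values were seen, it came out at -0.92 (log2, adjusted p = 0.333). Markers of stellate cells (11 of 12 lower), macrophages (8 of 10 lower, summed FPKM 1302 to 2574 in miR-181d-5p livers and 1970 to 2768 in control livers) and bile duct cells (8 of 8 lower, 122 to 392 FPKM in miR-181d-5p livers and 288 to 533 FPKM in control livers) moved the same way, and their part in the Vdr value was not tested. Nr2f1 had 68 reads in miR-181d-5p livers and 95 in control livers, of which miR-181d-5p liver 4 held 3. In miR-181d-5p livers Esrrg had 175 reads, Hnf4g 53 and Nr6a1 613, against 145, 49 and 591 reads in control livers.

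The 8 tested receptors with a seed match had log2 changes from -0.10 (Rora, 4 matches) to 0.12 (Nr1h4), with 5 lower and 3 higher and a median of -0.042. The 22 without a match had a median of 0.002. Over all tested genes the medians were -0.054 with a match and -0.007 without. These medians are from the fit with the gene length trend left in. With that trend removed from each liver, the log2 changes of the 8 receptors ran from -0.0 (Esr1) to 0.13 (Thrb and Nr5a2). In the fit reported, on the log2(FPKM + 1) scale, all 8 receptors had a 95% interval inside 0.5 on either side of 0. By limma voom on recovered reads the interval was -0.69 to 0.50 for Esr1 and -0.50 to 0.26 for Rora. Of the 2 carriers too low to test, Nr6a1 was at 103% of control and Vdr at 48.2%.

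Control livers differed from each other in a way that moved with gene length. The 8 tested receptors with a recovered gene length of at least 6000 bases (Rora, Thrb, Ppara, Nr3c2, Nr3c1, Nr2c2, Esr1 and Nr2f2) averaged 0.32 and 0.31 above their 10-liver means (log2) in control livers 1 and 2 and -0.16, -0.05 and -0.29 from them in control livers 3, 4 and 5. In miR-181d-5p livers the same average ran from -0.10 to 0.08. The 10 receptors under 3000 bases ran from -0.11 to 0.07 in miR-181d-5p livers and from -0.13 to 0.14 in control livers. Across the 30 receptors the Spearman correlation of a liver's deviation with gene length was 0.67 in control liver 1, 0.53 in control liver 2, -0.60 in control liver 3, -0.26 in control liver 4 and -0.48 in control liver 5. In miR-181d-5p livers it ran from -0.36 to 0.21. Over all 12053 tested genes it ran from -0.26 to 0.06 in miR-181d-5p livers and was 0.65, 0.56, -0.28, -0.01 and -0.45 in control livers 1 to 5. These are descriptions across genes of single libraries, genes are not independent replicates, and the cause was not tested. With a length trend removed from each liver, the log2 change of Ppara was -0.10, that of Rora 0.01 and that of Thrb 0.13, the last at an unadjusted limma p of 0.0461 and an adjusted p of 0.273.

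**Figure D4:**
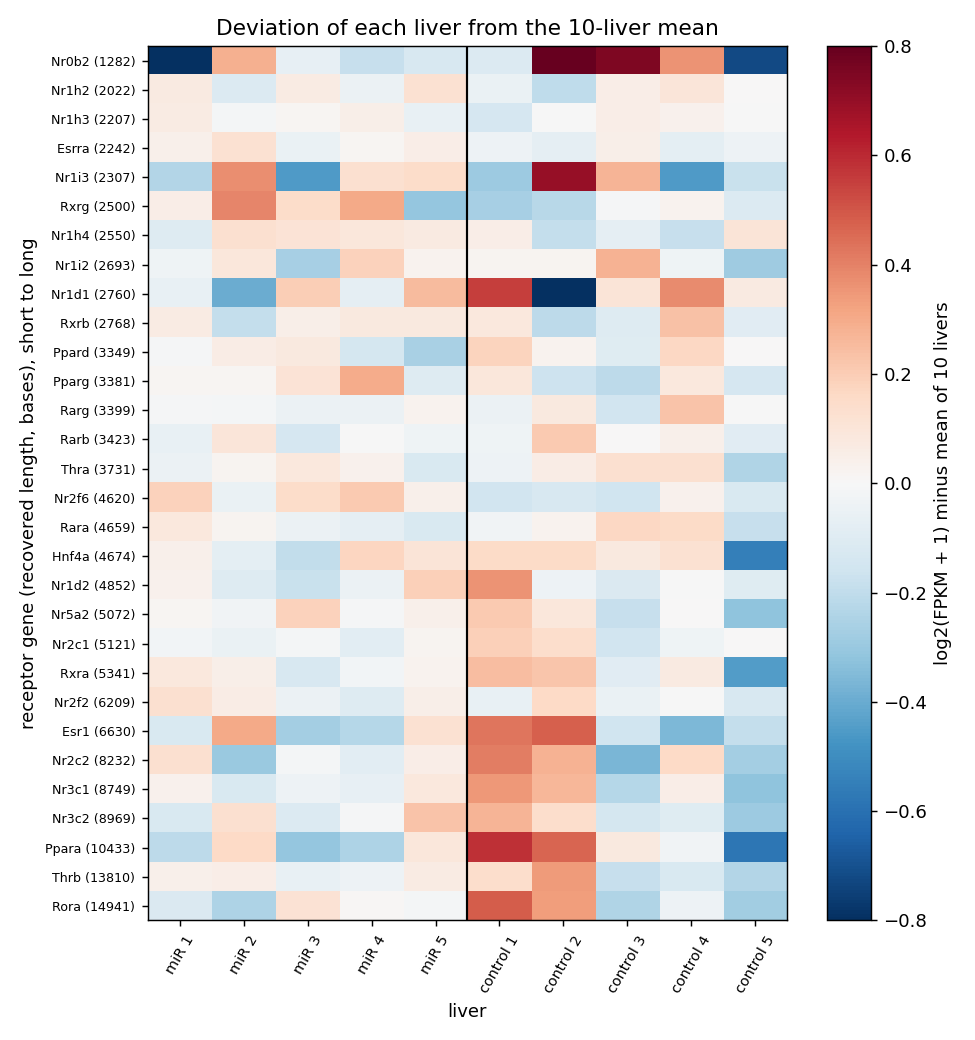
Deviation of each liver from the 10-liver mean of each tested receptor on the log2(FPKM + 1) scale, with receptors from shortest (top) to longest (bottom) gene, miR-181d-5p livers to the left and control livers to the right of the line. The longest receptors are high (red) in control livers 1 and 2 and low (blue) in control livers 3 and 5, while miR-181d-5p livers stay closer to 0.

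Coregulators carry receptor signals to chromatin and polymerase. Of 24 tested, 21 were lower and 3 higher, with a median log2 change of -0.12, which was -0.08 with the gene length trend removed, and 3 were lower at an unadjusted p under 0.05 (9.63% of all genes were) and 0 past the adjusted threshold. That count of 3 was 9 without control liver 5, with a median of -0.18, and 1 without miR-181d-5p liver 4, control liver 1 or control liver 2. It was 5 by voom with quality weights, and 1 among the 20 genes left with the filter at a mean of 1 FPKM. Ppargc1a, a coactivator that drives mitochondrial and gluconeogenic genes, stood at 0.423 ± 0.0795 FPKM in miR-181d-5p livers and 0.686 ± 0.109 FPKM in control livers, without overlap (adjusted p = 0.232 by limma). Of all tested genes, 1.45% did not overlap with the microRNA livers lower. The mean of Ppargc1a in miR-181d-5p livers was under the 0.5 FPKM limit for testing, so it passed that limit through its control values. Its log2 change of -0.24 was -0.13 with the length trend removed, in a gene of 15902 bases. Pprc1 and Ncoa7 were at 79.1% and 79.3% of control. Of the vitamin D receptor target list 3 genes were tested (Cd14, Camp and S100g), none at an unadjusted p under 0.05 by limma.

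**Figure D5:**
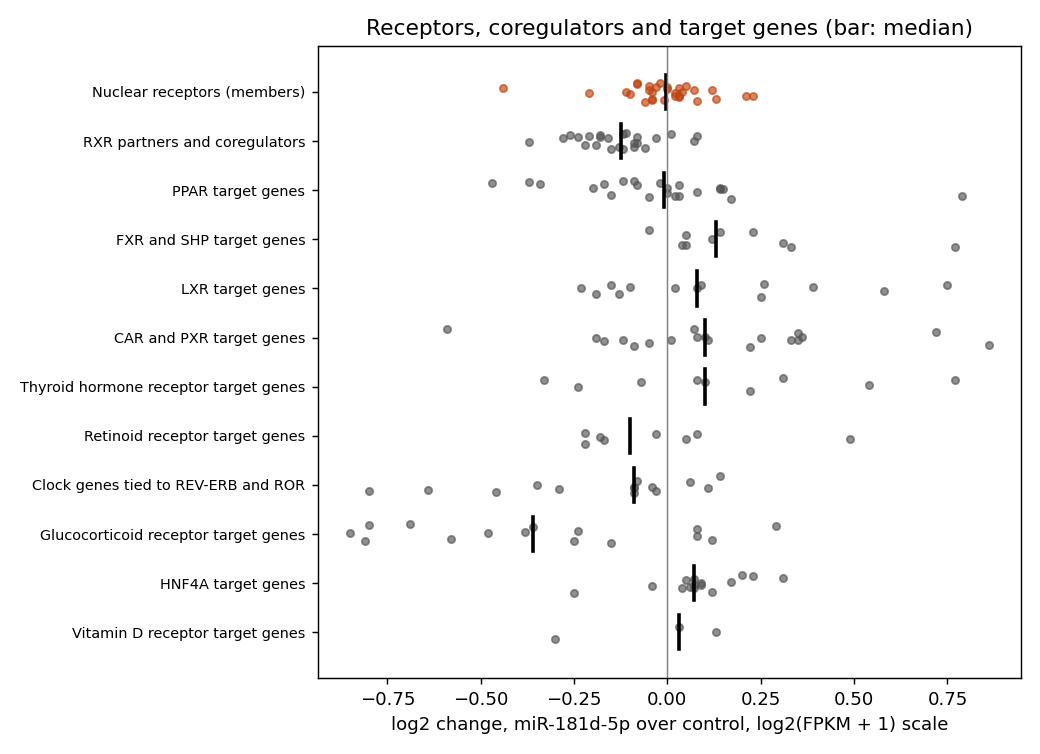
Log2 changes (miR-181d-5p over control) of the tested receptors (top row) and of tested genes in each list, 1 point a gene, with the median as a bar. The LXR list includes the receptor Nr1h3, which is drawn in both rows. Receptors lie between -0.44 and 0.23 around a median near 0, and of the lists drawn here the glucocorticoid target genes have the lowest median, -0.36.

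Whether a receptor's level went with that of a gene tied to it was examined over the 10 livers for 10 pairs on the log2(FPKM + 1) scale. None of the Pearson or Spearman correlations passed Benjamini-Hochberg adjustment over the 10 pairs (lowest adjusted permutation p 0.436 and 0.302). For Vdr and the stellate cell gene Cygb, Pearson's r was 0.62 (permutation p = 0.0572) and Spearman's rho 0.70 (permutation p = 0.0307), but r was 0.44 without control livers 3 and 4 and 0.23 on values centred within groups. For Nr1i3 and Cyp2b10, r was -0.57 (permutation p = 0.0872) and rho -0.62 (permutation p = 0.0604), and r was -0.51 without the 2 livers farthest from the median and -0.58 on values centred within groups. That inverse relation was weaker among the 5 miR-181d-5p livers than among the 5 control livers. Cyp2b10 was under the limit for testing. For Nr1d1 and Nr1d2, r was 0.42 (permutation p = 0.213) and rho 0.37 (permutation p = 0.295). For Nr1h4 and Nr0b2, r was -0.37 (permutation p = 0.281) and rho -0.33 (permutation p = 0.346), and r turned to 0.10 without control livers 2 and 4 and was -0.22 on values centred within groups. Each group alone has 5 livers, too few for a correlation of its own. The sign for Nr1h4 and Nr0b2 was positive among miR-181d-5p livers and negative among control livers. In the miR-181d-5p group, liver 1 was lowest for each of these genes. The pooled r of that pair is therefore not read as the relation within either group. The other 6 pairs had r between -0.11 and 0.40.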

How the data were processed

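The authors deposited 1 table of FPKM, with 1 column per liver and gene symbols. The build was mm10, per the submitters' processing notes, which also name HISAT2 2.2.1 for these data next to HTSeq 0.13.5 and DESeq2 1.18.1 and, besides, Trimmomatic 0.38, FastQC 0.11.9 and R 3.4.1, with no role or order. Annotation and strand setting are not given in the sources used here. Per the labels' protocols, TruSeq Stranded mRNA libraries were made from mirVana-extracted RNA. Each column name gives a group and a replicate number, which identified its sample.

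The 12053 genes averaging 0.5 FPKM or more over the 10 livers were fitted on the log2(FPKM + 1) scale with limma 3.58.1 (R 4.3.3, eBayes with trend, group as the only term). A log2 change on this scale understates that of low genes. Whole reads were recovered from the FPKM (within 0.02 of a read) for 17273 of 17274 genes, by searching for library totals and gene lengths. Livers of a group differed beyond counting noise (lowest chi-square per degree of freedom 9.53). The 3' UTRs and positions come from GENCODE vM21 (mm10), and 97.7% of tested genes had a 3' UTR.

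The members and the gene lists were chosen with earlier results of these data known. Each liver's value is given for the 10 receptors with the smallest p and the 4 with the highest level, and of each list the 3 genes with the smallest p, of which 1 is not reported here. The alternatives tried were pseudocounts, filters and scalings other than these, a length trend removed (lowess, span 0.3), voom, a replicate block and leaving out each liver. The labels give no batch.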

Additional observations from a re-analysis of the deposited data

Results flagged for a closer look

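In 5 of the 70 receptor and group combinations, 1 liver stood apart from the other 4 by the Dixon test. Chance alone gives about 1 in 20. In control liver 5, Hnf4a was at 67.19 FPKM, against 104.1 to 110.0 FPKM in the other control livers. In miR-181d-5p liver 1, Nr1h4 was at 31.60 FPKM, against 35.83 to 37.28 FPKM in the other livers of its group. In miR-181d-5p liver 2, Rxrb was at 14.94 FPKM, against 17.79 to 18.14 FPKM. In control liver 1, Nr1d2 was at 31.56 FPKM, against 22.42 to 24.29 FPKM in the other control livers. In control liver 4, Nr2f6 was at 31.75 FPKM, against 27.62 to 28.34 FPKM, and without that liver its log2 change was 0.25.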

How the results depend on the processing

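No receptor had an adjusted p under 0.05 in any of 635 fits of single receptors under the 21 alternatives by limma or voom, and the lowest was 0.149. The number of receptors at an unadjusted p under 0.05 and higher was 2 after quantile normalization and 2 with the length trend removed (1 in the fit reported), and 1 to 2 with livers left out, the higher count without miR-181d-5p liver 5. The number lower was 1 with no filter, 1 under the replicate block and 1 by voom on genes with at least 10 reads, an alternative chosen after seeing the data (0 in the fit reported), and 0 to 2 with livers left out: without control liver 5 these were Ppara and Nr0b2. The median change of the receptors stayed within 1 SD of the livers, and the count over all target, partner and clock lists together within 1.5 times, though single lists moved more: with livers left out it was 1 to 9 for coregulators (3 with all livers), 0 to 3 for PPAR targets (2), 1 to 6 for LXR targets (2) and 0 to 4 for HNF4A targets (1). Over all genes, the adjusted count was 1 under the replicate block, 2 by voom with quality weights and 0 to 3 with livers left out (3 without control liver 1). The unadjusted count, 1768 with all livers, ran from 1071 without miR-181d-5p liver 4 to 2587 without control liver 5.

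Signs turned for 15 receptors, none past the threshold. Quantile normalization gave Thra 0.05, Rarb 0.02, Rarg 0.02, Nr1h3 -0.01 and Hnf4a -0.03. Removal of the length trend gave Thra, Nr1d2, Rora and Nr2c2 0.01 each and Nr3c1 0.05. A common FPKM sum gave Nr1h3 and Hnf4a -0.01. Voom with quality weights gave Hnf4a -0.06, Rxrb -0.01 and Esr1 0.02. With livers left out, values ran from -0.07 to 0.02 for Thra, -0.03 to 0.11 for Thrb, -0.08 to 0.01 for Rarg, -0.29 to 0.10 for Nr1d1, -0.09 to 0.04 for Nr1d2, -0.01 to 0.04 for Nr1h3, -0.13 to 0.15 for Nr1i3, -0.12 to 0.07 for Hnf4a, -0.02 to 0.09 for Rxrb, -0.19 to 0.01 for Nr2c2, -0.18 to 0.03 for Esr1, -0.13 to 0.04 for Nr3c1 and -0.02 to 0.12 for Nr3c2. The cause was not tested.

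The replicate numbers share no source in the labels, and same-numbered livers did not deviate together (correlations -0.28 to 0.01); no liver correlated best with its own number. Depth limits Vdr, Hnf4g and Nr2f1, which had 3 to 30 reads per liver.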
